A study of Mus musculus with 6 samples.

Results

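The respiratory chain genes were measured in mouse bone marrow derived macrophages that had been induced for 7 days with CSF2 (GM-CSF) or with CSF1 (M-CSF). Members were genes whose symbol in the platform annotation names a nuclear-encoded subunit of complexes I to V or cytochrome c, or a complex I assembly factor of the Ndufaf series. There were 91 such genes among 19938 tested: 34 complex I subunits, 7 Ndufaf assembly factors, 4 complex II, 9 complex III, 19 complex IV and 17 complex V genes, and cytochrome c. Ndufa4 and Ndufa4l2 were counted with complex IV, since Ndufa4 is a subunit of that complex in spite of its symbol.

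The groups were 3 arrays of M(CSF2) cells and 3 arrays of M(CSF1) cells, all from C57BL/6 marrow, with no genetic change named. Cells had been sorted before RNA was taken, per the design text. The arrays of a group are labelled as biological replicates with no animal named, so p-values measure only the spread between these arrays, part of which may be technical. The platform was the Affymetrix Mouse Gene 1.0 ST array, which carries several probes along each transcript. All levels are deposited log2 signals of 1 probe set a gene and were compared between groups, not between genes. Each difference is a log2 value, M(CSF2) minus M(CSF1). A gene was called where limma's adjusted p, by Benjamini-Hochberg over all 19938 genes, was under 0.05. Signal at the level of genes that macrophages do not use was judged from 1027 olfactory receptor genes, whose 95th percentile was 3.36.

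Pearson's correlation over all probe sets was 0.995 to 0.997 within groups, and 0.954 to 0.959 between M(CSF2) and M(CSF1). The 8 macrophage markers, among them Csf1r, Cd68 and Itgam, lay above the olfactory receptor level in both groups, with 3 higher, 3 lower and 2 not called. Of 6 dendritic cell markers 3 were called higher, Itgax by 5.05 and Ccr7 by 3.93 as well as Clec9a, whose signal lay at the olfactory receptor level, and Zbtb46, Flt3 and Xcr1 were not called. The mean over the dendritic cell list lay between 5.45 and 5.55 in M(CSF2) arrays and between 3.89 and 3.98 in M(CSF1) arrays. All 4 measured proliferation markers were lower (Mki67, Mcm6, Ccna2 and Cdk1, median difference -2.55), and their mean lay between 4.85 and 5.21 in M(CSF2) arrays and between 7.46 and 7.69 in M(CSF1) arrays. Of 6 mast cell or basophil markers 3 were called higher, Hdc by 4.43 and Kit by 1.32 as well as Mcpt8, which like Cpa3, Mcpt4 and Ms4a2 lay at or below the olfactory receptor level in both groups. Calls were 1 higher and 1 lower of 7 neutrophil markers, 1 lower of 5 T cell markers, 1 lower of 3 B cell markers and none of 3 erythroid markers. The part of these markers in the results on the respiratory chain was not tested. Fewer cells of a type and less RNA per cell cannot be told apart in these bulk samples.

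The respiratory chain passes electrons from NADH and succinate to oxygen and uses the energy to pump protons across the inner mitochondrial membrane. Complex I oxidises NADH, complex II oxidises succinate, complex III hands the electrons to the mobile carrier cytochrome c, complex IV gives them to oxygen, and complex V, the ATP synthase, makes ATP from the proton gradient. In macrophages the balance between this chain and glycolysis is known to shift with activation, and succinate oxidation and complex I are sources of reactive oxygen species. Most subunits are encoded in the nucleus, and a few of the most hydrophobic are encoded in mitochondrial DNA.

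The respiratory chain was not shifted as a block. Of the 91 genes, 11 rose and 11 fell in M(CSF2), against a background of 11.9% of all genes called higher and 15.6% called lower. The called share was 24.2%, near the 27.5% of all genes, and none of the 91 differed by 2-fold, where 7.99% of all genes were called at that size. Because 84 of the 91 genes were at or above the median signal of all genes, the brighter genes give the closer background. Among those, 48.6% of all genes were called, 20.3% higher and 28.2% lower, against 26.2% of the 84 members, 13.1% each way. The median size of a difference, whatever its sign, was 0.17 on the log2 scale over the members and 0.32 over all genes at or above the median signal. The median signed difference was 0.08 over the members and 0.04 over all genes. Among genes at or above the median signal it was 0.08 over the 84 members and -0.02 over all such genes. The members' groups did not overlap in 43 of 91 cases (47.3%), where 38.9% of all genes did not overlap. Among genes at or above the median signal the groups did not overlap in 42 of the 84 members, a smaller share than the 61.2% of all such genes.

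The balance of the calls depended on how the arrays were scaled. After quantile normalization 20 members were called higher and 10 lower, and after centring on array medians 11 higher and 14 lower. Over all 19938 genes, 2772 were called higher and 3077 lower after quantile normalization, and 2065 and 3285 after centring. As reported, these counts were 2373 and 3115. In simulated data on 19938 genes, 0% of the differences of 0.25, 32% of those of 0.5 and 90% of those of 1 were recovered. Only 112 genes were called in that simulation, against 5488 in the data, which makes its adjusted cutoff stricter. These shares therefore do not give the recovery in the data, where Atp5pb was called at -0.25. How many small differences were missed in the data is not known. Of the 22 called genes, 12 kept their call in all of the 8 other settings and the 6 fits with 1 array left out, and no called gene changed sign. Without M(CSF2) replicate 1, 14 members were called higher and 7 lower. Without M(CSF1) replicate 1 the counts were 10 and 7, and without M(CSF1) replicate 2 they were 9 and 6. Over all genes the counts without M(CSF2) replicate 1 were 2053 higher and 2508 lower. Without M(CSF1) replicate 1 they were 1995 and 2476, and without M(CSF1) replicate 2 they were 1858 and 2396.

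**Figure D1:**
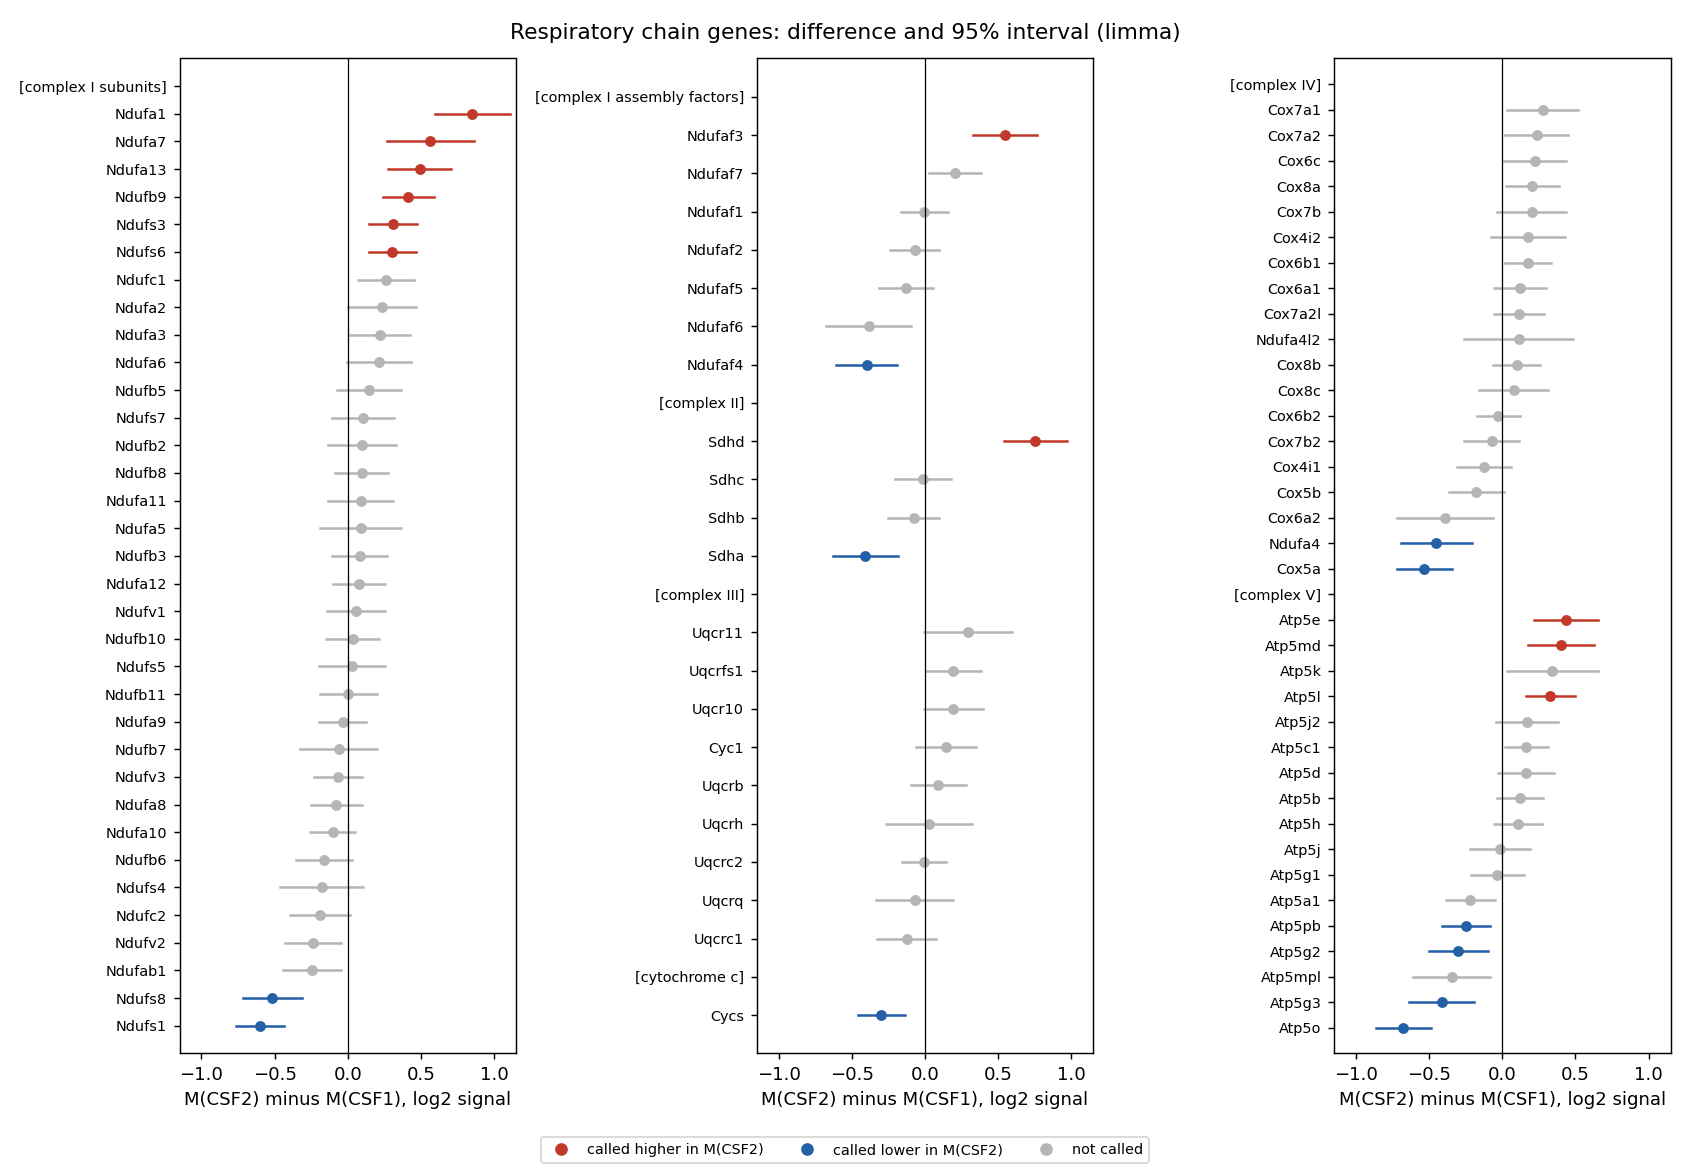
Difference in log2 signal, M(CSF2) minus M(CSF1), for each of the 91 genes (points) with its 95% interval from limma (bars), n = 3 arrays a group. Red genes were called higher, blue genes lower and grey genes were not called; differences run from -0.68 for Atp5o to 0.85 for Ndufa1, and complex III has no called gene.

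Complex I, the NADH dehydrogenase, had 6 of its 34 measured subunits higher and 2 lower, with a median difference of 0.08. Of the 28 accessory subunits, which surround the catalytic core, 5 rose (17.9%) and none fell, and of the 6 core subunits measured 1 rose and 2 fell. Among all genes at or above the median signal, 20.3% were called higher and 28.2% lower. Whether core and accessory subunits differ was not tested.

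Ndufa1, a small membrane-anchored accessory subunit encoded on the X chromosome, showed the largest difference of all members. Its log2 signal was 7.82, 8.18 and 8.12 in M(CSF2) arrays and 7.28, 7.20 and 7.09 in M(CSF1) arrays. The lowest M(CSF2) array stood above the highest M(CSF1) array. The difference was 0.85 (SE 0.11, adjusted p = 0.00077 from limma), a fold of 1.80 with a 95% interval of 1.51 to 2.15. Ndufa7, an accessory subunit of the arm that reaches into the matrix, gave 6.63, 6.79 and 6.96 in M(CSF2) arrays and 6.21, 6.44 and 6.04 in M(CSF1) arrays. Its groups did not overlap, and it rose by 0.57 (adjusted p = 0.012), but without M(CSF1) replicate 1 its adjusted p was 0.0576. Ndufa13, an accessory membrane subunit also known as GRIM-19, rose by 0.49 (adjusted p = 0.005), and Ndufb9, an accessory subunit of the distal membrane arm, by 0.41 (adjusted p = 0.0044). Ndufs6, a zinc-binding accessory subunit, rose by 0.31 to 7.62 ± 0.07 in M(CSF2), against 7.32 ± 0.03 in M(CSF1) (SD, n = 3 arrays each, limma adjusted p = 0.013).

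Among the core subunits, Ndufs1 and Ndufs8, which carry iron-sulfur clusters of the electron path, fell. Ndufs1 gave 6.74, 6.67 and 6.75 in M(CSF2) arrays and 7.35, 7.37 and 7.23 in M(CSF1) arrays. Ndufs8 gave 7.16, 7.39 and 7.24 in M(CSF2) arrays and 7.81, 7.85 and 7.67 in M(CSF1) arrays. In both genes every M(CSF2) array lay below every M(CSF1) array. Ndufs1 fell by 0.60 (SE 0.07, adjusted p = 0.00048 from limma), and Ndufs8 fell by 0.51 (SE 0.09, adjusted p = 0.0032). Ndufs3, another core subunit of the matrix arm, rose by 0.31 (adjusted p = 0.013). The other core subunits were not called: Ndufs7, which passes electrons to ubiquinone, gave 0.11, Ndufv1, which binds NADH, 0.06, and Ndufv2 -0.24. The 26 complex I subunits that were not called gave differences from -0.24 to 0.26, with Ndufab1, the mitochondrial acyl carrier protein, at the low end and Ndufc1 at the high end.

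The Ndufaf assembly factors split as well, with 1 of 7 higher and 1 lower. Over all genes 11.9% were called higher and 15.6% lower, and over those at or above the median signal 20.3% and 28.2%. Ndufaf3 and Ndufaf4 are known to act together early in complex I assembly. Ndufaf3 gave 7.20, 7.37 and 7.18 in M(CSF2) arrays and 6.77, 6.79 and 6.56 in M(CSF1) arrays, a rise of 0.54 (adjusted p = 0.0033). Ndufaf4 gave 4.09, 4.09 and 4.16 in M(CSF2) arrays and 4.39, 4.68 and 4.46 in M(CSF1) arrays, and fell by 0.40 (adjusted p = 0.012). The groups of both genes were apart, in opposite directions. Without M(CSF2) replicate 1 the adjusted p of Ndufaf4 was 0.051. The other 5 factors ranged from -0.38 for Ndufaf6 (adjusted p = 0.0575) to 0.20 for Ndufaf7.

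Complex II, succinate dehydrogenase, is a small complex shared with the citric acid cycle, and its 4 subunits did not move together. Of the 4, 1 was called higher and 1 lower, where 11.9% of all genes were called higher and 15.6% lower. Over genes at or above the median signal these shares were 20.3% and 28.2%. Sdhd, a membrane anchor that helps bind ubiquinone, gave 9.05, 9.18 and 9.25 in M(CSF2) arrays and 8.53, 8.40 and 8.28 in M(CSF1) arrays, with no overlap. It rose by 0.75 (SE 0.09, adjusted p = 0.00056), a fold of 1.69 with a 95% interval of 1.45 to 1.96. Sdha, the flavoprotein that oxidises succinate, gave 8.16, 7.99 and 8.07 in M(CSF2) arrays and 8.61, 8.51 and 8.32 in M(CSF1) arrays. It fell by 0.41 (adjusted p = 0.014), with groups that did not overlap. The call of Sdha was lost in 3 of the 6 fits that drop an array: its adjusted p was 0.0562 without M(CSF2) replicate 2, 0.0532 without M(CSF1) replicate 1 and 0.065 without M(CSF1) replicate 2. The iron-sulfur subunit Sdhb gave -0.08 and the other anchor, Sdhc, -0.01, and neither was called.

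Complex III, the ubiquinol-cytochrome c reductase, had 0 of 9 genes called, and 1 of the 9 had an unadjusted p under 0.05. The called share was 27.5% over all genes and 48.6% over those at or above the median signal. Differences ran from -0.12 for the core protein Uqcrc1 to 0.29 for the small subunit Uqcr11, with a median of 0.09. The lowest and highest ends of the 9 intervals were -0.33 and 0.59. These ends come from different genes and are not an interval for any single gene or for the complex. For each gene, differences within its own interval are not excluded. Cyc1, the cytochrome subunit, gave 7.51, 7.81 and 7.65 in M(CSF2) arrays and 7.55, 7.50 and 7.49 in M(CSF1) arrays, which overlap. Uqcrc1 gave 8.13, 8.26 and 8.18 in M(CSF2) arrays and 8.43, 8.34 and 8.17 in M(CSF1) arrays, which overlap too. Uqcr11 gave 7.21, 7.41 and 6.88 in M(CSF2) arrays and 6.88, 6.86 and 6.88 in M(CSF1) arrays. Its higher mean came from 2 of the 3 M(CSF2) arrays, and without M(CSF2) replicate 3 it was 0.44 (adjusted p = 0.015). A second probe set of Uqcr11 gave 0.01. The Rieske iron-sulfur protein gene Uqcrfs1 gave 0.19, and after quantile normalization it was 0.29 and called (adjusted p = 0.025).

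Cytochrome c, Cycs, which carries electrons from complex III to complex IV and is known for its role in apoptosis, gave 9.78, 9.70 and 9.84 in M(CSF2) arrays and 10.05, 10.08 and 10.07 in M(CSF1) arrays. It fell by 0.30 (SE 0.07, adjusted p = 0.013), with all M(CSF2) arrays below all M(CSF1) arrays. A second bright probe set gave -0.39, and the dimmest lay under 3.36 in both groups, at 2.83 in M(CSF2) and 3.17 in M(CSF1).

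Complex IV, cytochrome c oxidase, had 0 of 19 genes higher and 2 lower, with a median difference of 0.11. The called share was 10.5%, beside 27.5% of all genes and 48.6% of those at or above the median signal. Only 14 of the 19 genes were at or above the median signal, so the 48.6% is not for a like set. Cox5a, one of the nuclear-encoded subunits that join early in assembly, gave 8.10, 8.20 and 8.11 in M(CSF2) arrays and 8.79, 8.65 and 8.56 in M(CSF1) arrays. It fell by 0.53 (SE 0.08, adjusted p = 0.0019), a fold of 1.45 with a 95% interval of 1.27 to 1.65. Of the other subunits, Cox5b gave -0.18, Cox4i1 -0.13, Cox6c 0.22, Cox8a 0.20 and Cox6b1 0.17, and none was called. Cox7c was measured only by 3 probe sets shared with Gm12338, which gave 0.07 to 0.10 without a call among 28941 probe sets, of which 24.7% were called. After quantile normalization Cox6c (0.25), Cox7b (0.27) and Cox8a (0.28) were called higher, and the complex had 3 higher and 2 lower.

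Several complex IV subunits come as isoforms of different genes. The widely expressed Cox6a1 gave 0.12. The lung and hypoxia isoform Cox4i2 gave 0.17, the heart and muscle isoforms Cox6a2 and Cox7a1 gave -0.39 (adjusted p = 0.0789) and 0.28 (adjusted p = 0.0959), and Cox7a2 gave 0.23. The testis isoforms Cox6b2, Cox7b2 and Cox8c and the muscle isoform Cox8b gave -0.03, -0.07, 0.08 and 0.10. None of these was called, and Cox7b2 and Cox8b were the 2 of the 91 members with all 6 arrays at or below the olfactory receptor level, and the means of Cox8c, 3.28 in M(CSF2) and 3.21 in M(CSF1), lay below it too. Cox6a2 became called after centring on medians (-0.43, adjusted p = 0.03), with filters on dim genes and with a replicate block.

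Ndufa4 and its paralogs gave the widest contrast in the lists of genes around the chain. Ndufa4 is a complex IV subunit, and AA467197 (also Nmes1) encodes a paralog known to take the place of Ndufa4 in complex IV during inflammation. AA467197, which the members' rule does not match, gave 9.90, 9.60 and 10.003 in M(CSF2) arrays and 3.58, 3.27 and 3.40 in M(CSF1) arrays. It rose by 6.42 (SE 0.13, adjusted p = 1.4e-07 from limma), a fold of 85.4 with a 95% interval of 69.7 to 105, and 1 of the 3 M(CSF1) arrays lay below the olfactory receptor level, which leaves the upper size of the fold uncertain. Ndufa4 gave 8.62, 8.93 and 8.93 in M(CSF2) arrays and 9.25, 9.38 and 9.21 in M(CSF1) arrays. It fell by 0.45 (SE 0.10, adjusted p = 0.014), with groups that did not overlap. The call of Ndufa4 was lost without M(CSF1) replicate 1 (adjusted p = 0.0508) and without M(CSF1) replicate 2 (adjusted p = 0.0713). Ndufa4l2, the paralog known for its induction in hypoxia, gave 0.11 with overlapping groups.

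RefSeq places the gene of miR-147 inside the span of AA467197 on GRCm38.p6: the hairpin lies at chr2:122640803-122640881 on the plus strand and the gene spans chr2:122637887-122641076. The hairpin is shown because this microRNA and AA467197 are known to come from the same transcript. Capitals mark the mature 5p arm only, since no entry for the other mature arm was at hand, and that arm is in lower case. The microRNA itself was not measured here.
Mir147 hairpin: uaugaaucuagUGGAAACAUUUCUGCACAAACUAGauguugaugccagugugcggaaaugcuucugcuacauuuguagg

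**Figure D2:**
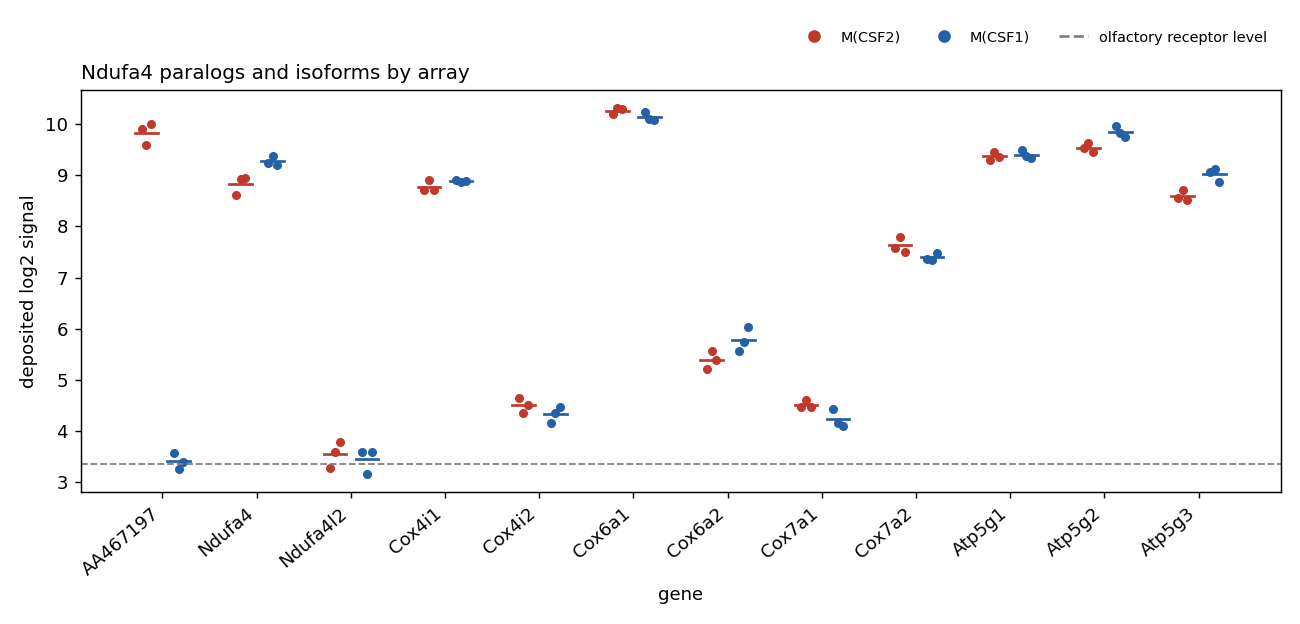
Deposited log2 signal in each array (points) and group means (bars) for Ndufa4, its paralogs and isoform families of complexes IV and V, M(CSF2) in red and M(CSF1) in blue, n = 3 arrays each. The dashed line is the olfactory receptor level of 3.36; AA467197 lies far above it in M(CSF2) and near it in M(CSF1), while the other genes differ by less than 1. Levels of different genes are not comparable.

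Complex V, the ATP synthase, had 3 of 17 genes higher and 4 lower, with a median difference of 0.11. The called share was 41.2%, beside 27.5% of all genes and 48.6% of those at or above the median signal. Genes of the stalk that holds the catalytic head in place and of the rotor ring were among the falls. Atp5o, the stalk protein OSCP, gave 7.58, 7.78 and 7.56 in M(CSF2) arrays and 8.30, 8.34 and 8.30 in M(CSF1) arrays. It fell by 0.68 (SE 0.08, adjusted p = 0.00050), a fold of 1.60 with a 95% interval of 1.404 to 1.82, and was the member that fell most. Atp5pb, another stalk subunit, fell by 0.25 (adjusted p = 0.036), while the stalk subunits Atp5h and Atp5j gave 0.11 and -0.01. The catalytic subunits Atp5a1 and Atp5b gave -0.22 (adjusted p = 0.059) and 0.12, and neither was called.

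The rotor ring is made from a single protein that is encoded by 3 genes, Atp5g1, Atp5g2 and Atp5g3. Atp5g3 gave 8.56, 8.72 and 8.52 in M(CSF2) arrays and 9.06, 9.12 and 8.86 in M(CSF1) arrays, and fell by 0.41 (adjusted p = 0.014). Atp5g2 fell by 0.30 (adjusted p = 0.035), with -0.28 to -0.30 over its 3 probe sets, and Atp5g1 gave -0.03. The groups of Atp5g2 and Atp5g3 did not overlap, and those of Atp5g1 did. These calls were close to the threshold. With an array left out, Atp5g2, Atp5g3 and Atp5pb each kept their call in 2 of 6 fits, and their highest adjusted p was 0.109 (without M(CSF2) replicate 3), 0.0639 (without M(CSF1) replicate 2) and 0.113 (without M(CSF1) replicate 2). Atp5g2 and Atp5pb also lost it after quantile normalization (adjusted p = 0.0666 and 0.0833).

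The genes that rose were Atp5e, Atp5md and Atp5l. Atp5e, the epsilon subunit of the central stalk, gave 7.88, 8.05 and 7.73 in M(CSF2) arrays and 7.49, 7.42 and 7.45 in M(CSF1) arrays. It rose by 0.43 (adjusted p = 0.0099), and without M(CSF1) replicate 2 its adjusted p was 0.0506. Atp5md (DAPIT) gave 9.71, 9.98 and 9.9997 in M(CSF2) arrays and 9.53, 9.55 and 9.40 in M(CSF1) arrays, with groups that did not overlap. It rose by 0.40 (adjusted p = 0.018), and kept its call in 1 of the 6 fits that drop an array, with adjusted p up to 0.0681 without M(CSF2) replicate 2. Atp5l, which like Atp5md sits in the membrane part where the enzyme forms dimers, rose by 0.33 (adjusted p = 0.011), and its 6 probe sets gave 0.33 to 0.41, all called. Atp5k, of the same membrane part, gave 0.34 (adjusted p = 0.107) and was called after quantile normalization (0.44, adjusted p = 0.022). Atp5mpl, also a complex V gene, went the other way, at -0.35 with groups that did not overlap, and was not called. In 4 of the 8 other settings Atp5mpl was called lower.

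**Figure D3:**
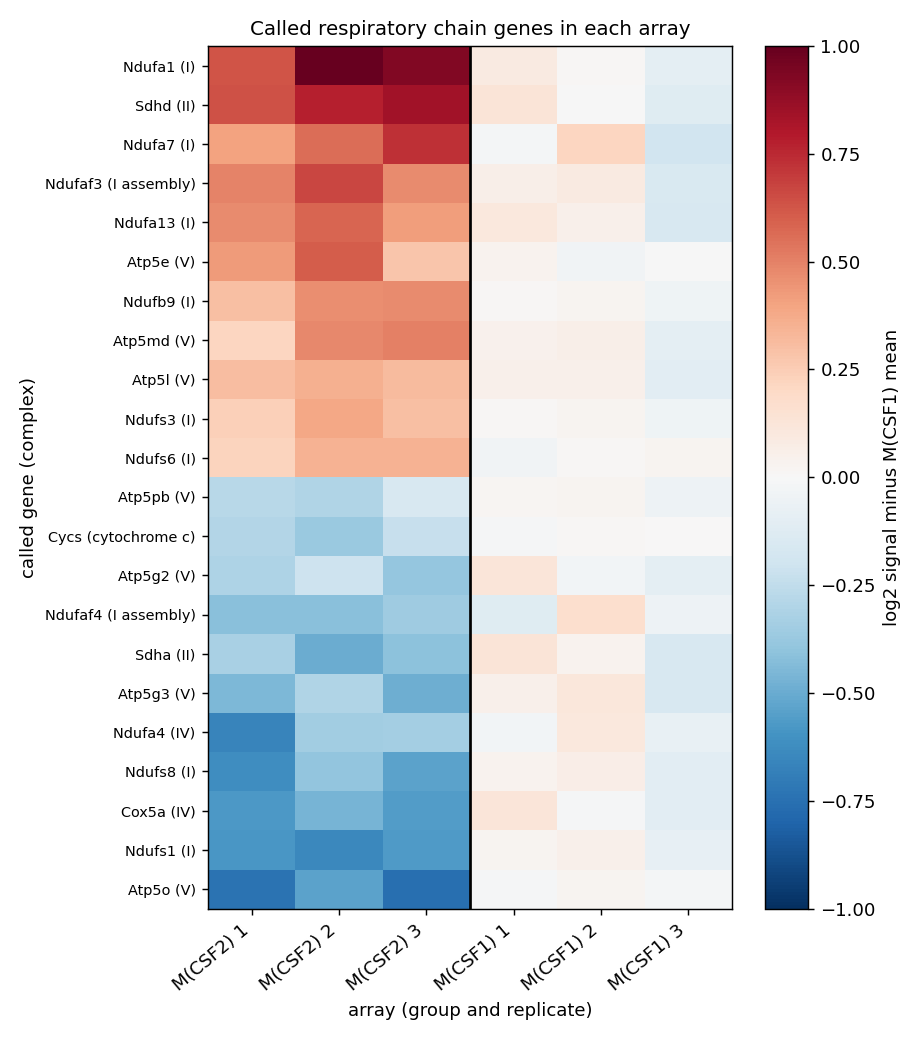
Log2 signal of the 22 called genes in each array, as the difference from that gene's mean over the 3 M(CSF1) arrays (colour), with M(CSF2) arrays left of M(CSF1) arrays and the complex in brackets. In each gene shown, the 3 M(CSF2) arrays lie on 1 side of the 3 M(CSF1) arrays; 11 genes are higher and 11 lower in M(CSF2).

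The spread between arrays limits what can be said of whole complexes. Over the 34 complex I subunits, the median of the values set against each gene's mean was -0.055, 0.109 and 0.033 in M(CSF2) arrays and -0.008, -0.003 and -0.084 in M(CSF1) arrays, so the groups overlapped. Complexes II, III and V overlapped too. Over the 19 complex IV genes these medians were -0.013, 0.069 and 0.040 in M(CSF2) arrays and -0.011, -0.056 and -0.009 in M(CSF1) arrays, which overlap as well. M(CSF2) replicate 1 gave the lowest M(CSF2) median in complexes I to V.

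The chain was also read by more than 1 probe set in 18 members, and the sign was the same over all probe sets in each of the 18. The call was the same in 16, the exceptions being Cycs and Atp5pb, whose second probe set gave -0.24 (adjusted p = 0.0602). Respiratory chain genes are known for near-identical processed copies in the genome, so which copies a probe set reads is uncertain. Ndufb4 was measured only with Ndufb4b, at -0.04 and -0.05 and not called.

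The promoters of the chain's genes are known as targets of the factors NRF1, ETS family members such as GABPA, and YY1. A RefSeq promoter of 300 bases around the start of the gene on GRCm38.p6 was at hand for 74 of the 91 genes. The NRF1 motif, read on both strands, was present in 18 of them (24.3%), against 7.87% of the 15563 tested genes with a promoter. The ETS letters CCGGAAG were in 24.3% against 13.6%, and the YY1 motif in 8.11% against 2.40%. Among the members called higher, 2 of 10 held the NRF1 motif and 5 of 10 the ETS letters. Among those called lower, 5 of 10 held the NRF1 motif and 1 of 10 the ETS letters. In the 54 not called, 20.4% and 22.2% did. These counts are small, were not tested, and describe letters in a window.

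Promoters of 4 called genes are shown to set those that rose beside those that fell: Ndufa1 (chrX:37191189-37191488, minus strand) and Sdhd (chr9:50603800-50604099, minus strand) from the rises, and Sdha (chr13:74350191-74350490, minus strand) and Atp5o (chr16:91931581-91931880, minus strand) from the falls. Capitals mark matches to the NRF1 or ETS letters on either strand. Sdha holds 3 NRF1 matches, Sdhd 1 NRF1 and 1 ETS match, Atp5o 1 NRF1 match, and Ndufa1 none. These 4 genes were not chosen by a stated rule and do not stand for all rises and falls. Cox5a, which fell by 0.53, held neither motif, and Ndufs8, which fell by 0.51, held 1 ETS match but no NRF1 match. Ndufs6, which rose by 0.31, held 1 NRF1 match.
Ndufa1: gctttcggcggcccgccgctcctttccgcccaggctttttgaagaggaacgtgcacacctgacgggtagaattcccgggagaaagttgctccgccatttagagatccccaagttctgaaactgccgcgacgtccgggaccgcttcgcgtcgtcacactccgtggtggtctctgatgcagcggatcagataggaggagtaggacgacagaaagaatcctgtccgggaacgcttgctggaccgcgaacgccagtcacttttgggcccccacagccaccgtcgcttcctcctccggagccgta
Sdhd: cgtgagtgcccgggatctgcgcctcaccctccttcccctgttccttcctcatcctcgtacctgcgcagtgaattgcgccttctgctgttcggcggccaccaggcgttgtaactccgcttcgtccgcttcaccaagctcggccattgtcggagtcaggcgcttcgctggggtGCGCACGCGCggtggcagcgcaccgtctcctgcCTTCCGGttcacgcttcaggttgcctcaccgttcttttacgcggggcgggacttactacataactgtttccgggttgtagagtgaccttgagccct
Sdha: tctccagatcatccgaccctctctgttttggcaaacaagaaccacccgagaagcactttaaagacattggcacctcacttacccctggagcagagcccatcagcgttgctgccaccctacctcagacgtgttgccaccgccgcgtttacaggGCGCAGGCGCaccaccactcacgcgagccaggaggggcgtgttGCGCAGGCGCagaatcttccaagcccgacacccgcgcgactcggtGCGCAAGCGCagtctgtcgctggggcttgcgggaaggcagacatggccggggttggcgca
Atp5o: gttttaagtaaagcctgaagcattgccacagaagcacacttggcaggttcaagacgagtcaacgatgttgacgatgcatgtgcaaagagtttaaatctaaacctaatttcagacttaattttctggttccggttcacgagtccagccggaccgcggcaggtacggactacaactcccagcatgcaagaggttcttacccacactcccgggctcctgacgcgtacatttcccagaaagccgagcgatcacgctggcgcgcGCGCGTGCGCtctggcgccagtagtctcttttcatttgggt

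Shorter genes tended to the higher side. Across the 91 members, Spearman's rho between the genomic span of a gene and its difference was -0.28, against -0.20 across 9952 genes at or above the median signal and -0.13 across all 19853 genes with a span. Genes are not independent replicates, and all points share the same 6 arrays. For the mean signal, rho was 0.02 across the members.

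Genes around the chain were read from 9 lists of related pathways. Beside their counts, 11.9% of all genes were called higher and 15.6% lower. Among genes at or above the median signal these shares were 20.3% and 28.2%. Subunits encoded in mitochondrial DNA were represented by COX2 and ND3, which gave 0.01 and 0.20 and were not called. ATP6, on probe sets shared with Gm10925, gave 0.07 and 0.10, and ND6, on a probe set shared with Acsm2, gave 0.47 (adjusted p = 0.0579 over all probe sets). The brightest COX2 probe set read 11.62, 11.36 and 11.62 in M(CSF2) arrays and 11.48, 11.48 and 11.62 in M(CSF1) arrays, so the groups overlapped.

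Of 16 genes that control mitochondrial gene expression, 0 were called higher and 6 lower, with a median difference of -0.22, beside 0.04 over all genes and -0.02 over all genes at or above the median signal. The share called lower was 37.5%, beside 15.6% of all genes and 28.2% of those at or above the median signal. Tfb2m, a mitochondrial transcription factor, fell by 0.89, and Pprc1, a coactivator related to PGC-1, by 0.82. Tfam, which packages mitochondrial DNA and starts its transcription, gave 3.15, 2.70 and 2.90 in M(CSF2) arrays, all at or below the olfactory receptor level, and 3.61, 3.67 and 3.51 in M(CSF1) arrays, which makes it at least 1.18-fold lower (adjusted p = 0.0037). Ppargc1a (PGC-1 alpha) lay under 3.36 in all 6 arrays, and Nrf1 gave 0.26 and was not called. The calls of Gabpa (-0.35) and Yy1 (-0.30) each held in 1 of the 6 fits that drop an array, with adjusted p up to 0.0776 and 0.145 without M(CSF1) replicate 1.

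Coenzyme Q, the lipid that carries electrons to complex III, had 4 of the 12 genes in its list higher and 2 lower. The methyltransferase Coq3 gave 6.27, 6.43 and 6.45 in M(CSF2) arrays and 5.53, 5.45 and 5.42 in M(CSF1) arrays, and rose by 0.92 (SE 0.08, adjusted p = 8.3e-05). Coq10a rose by 0.74, though by 0.32 as the mean of its probe sets, and Coq9 by 0.52, while the kinase-like Coq8a fell by 0.83 and the methyltransferase Coq5 by 0.59. Among 8 other enzymes that feed electrons into coenzyme Q, 1 was higher and 2 lower. Gpd2, the mitochondrial glycerol-3-phosphate dehydrogenase that links glycolysis to the chain, gave 7.03, 6.69 and 6.99 in M(CSF2) arrays and 8.78, 8.96 and 8.84 in M(CSF1) arrays. All M(CSF2) arrays lay far below the M(CSF1) arrays, and Gpd2 fell by 1.96 (SE 0.11, adjusted p = 8.3e-06), a fold of 3.88 with a 95% interval of 3.27 to 4.61. The other calls of that list were weak: Etfb (-0.39) kept its call in 2 and Sqor (0.27) in 1 of the 6 fits that drop an array.

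Of 20 assembly genes for complexes I, II, III and V outside the rule, 2 rose and 3 fell, with a median of -0.11. Uqcc3, for complex III, rose by 0.68 and Sdhaf1, for complex II, by 0.43, while Sdhaf2, which puts the flavin into Sdha, fell by 0.54, Tmem70, for complex V, by 0.47 and Acad9, for complex I, by 0.44. Of 19 complex IV assembly genes 1 rose and 4 fell, with a median of -0.01. The copper chaperone Cox17 gave 9.09, 9.26 and 9.34 in M(CSF2) arrays and 8.42, 8.60 and 8.41 in M(CSF1) arrays, and rose by 0.75 (adjusted p = 0.00064). Lrpprc, which stabilises mitochondrial mRNAs, fell by 0.71, Coa5 by 0.59 and Fastkd2 by 0.44. The call of Lrpprc was lost without M(CSF1) replicate 1 (adjusted p = 0.0607) and without M(CSF1) replicate 2 (adjusted p = 0.061).

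In the list of supercomplex factors and Ndufa4 paralogs, 3 of 7 rose and 1 fell, AA467197 and Ndufa4 among them. Higd2a, which takes part in complex IV and supercomplex assembly, rose by 0.88 (adjusted p = 0.00024), and the hypoxia-induced Higd1a by 0.69, or by 0.35 as the mean of its probe sets. Cox7a2l, which joins complexes III and IV, gave 0.11 and was not called. Of 10 cardiolipin and cristae genes 1 rose and 4 fell: Chchd6 rose by 0.63, and the fusion and cristae protein Opa1 fell by 0.75, the cristae organiser Immt by 0.60 and the cardiolipin synthase Crls1 by 0.38. The call of Opa1 was lost without M(CSF2) replicate 1 (adjusted p = 0.0559), M(CSF1) replicate 1 (adjusted p = 0.0707) or M(CSF1) replicate 2 (adjusted p = 0.0662). Of 10 genes for uncoupling, nucleotide exchange and ATP synthase inhibition, 0 rose and 3 fell. The adenine nucleotide carrier Slc25a4 fell by 0.47, Vdac3 by 0.27 and the phosphate carrier Slc25a3 by 0.23. After quantile normalization Vdac3 (adjusted p = 0.0862) and Slc25a3 (adjusted p = 0.19) were not called, nor were they with the replicate block (adjusted p = 0.0681 and 0.109). Vdac3 kept its call in 3 of the 6 fits that drop an array and lost it without M(CSF2) replicates 1 or 2 or M(CSF1) replicate 2, with adjusted p up to 0.0674. Slc25a3 kept its call in 1 of the 6, the one without M(CSF2) replicate 2, with adjusted p up to 0.11 without M(CSF1) replicate 2. Atpif1, which inhibits the ATP synthase, gave 0.00 and was not called.

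**Figure D4:**
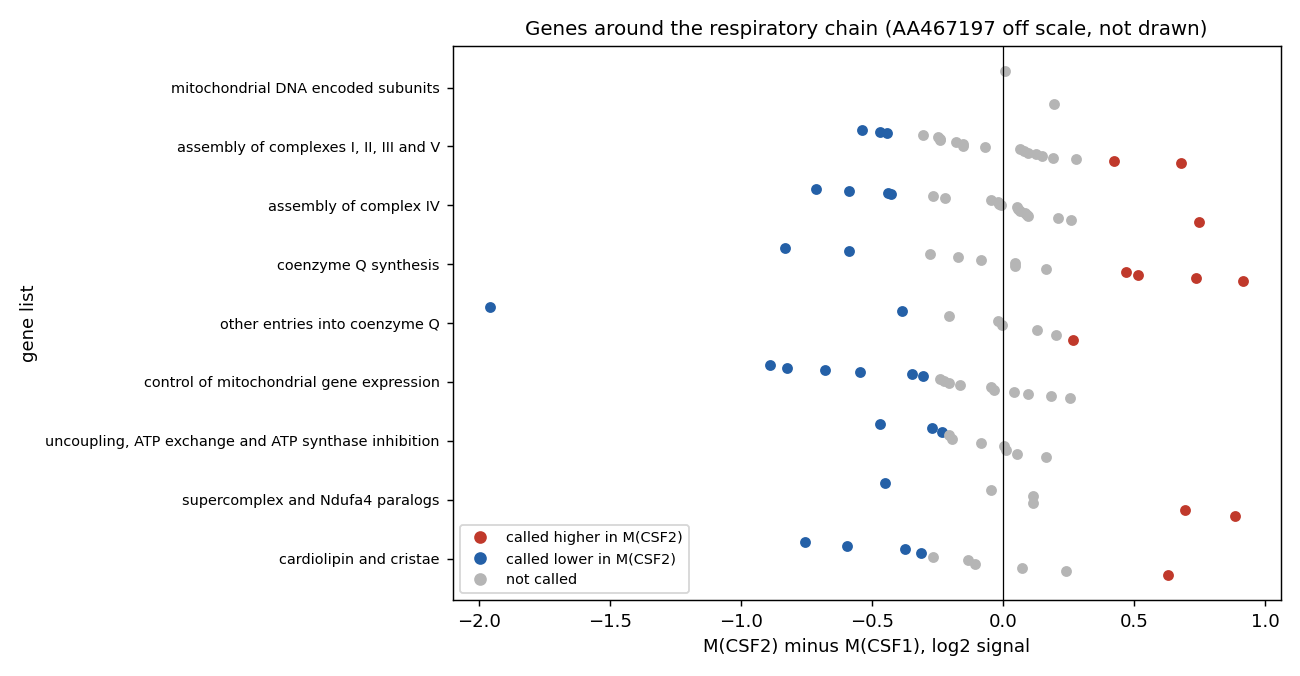
Difference in log2 signal, M(CSF2) minus M(CSF1), of each gene in 9 lists of pathways around the chain (points; the vertical offset within a list only separates them), n = 3 arrays a group. Gpd2 lies at -1.96 and the genes of mitochondrial gene expression control that were called all lie below 0; AA467197, at 6.42, is not drawn.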

How the data were processed

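Total RNA of 3 M(CSF2) and 3 M(CSF1) samples was hybridised to 1-colour Affymetrix Mouse Gene 1.0 ST arrays, per the labels. The authors deposited 1 log2 value per probe set and array, for 28941 probe sets. The scale is not stated and was taken as base 2 from the range of 1.48 to 13.27. Per the submitters' processing notes the tool was MAS5, and how background and scaling were handled was not given in the sources used here. Detection calls were not used here.

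Names came from the array's annotation, which gave 21789 probe sets 1 gene, 1621 several genes and 5531 none. For each of 19938 genes the probe set with the highest mean over the 6 arrays was used. Differences, M(CSF2) minus M(CSF1), were tested by lmFit and eBayes of limma 3.58.1 (R 4.3.3), with Benjamini-Hochberg adjustment over all genes and a threshold of 0.05, and every adjusted p comes from this fit or the named alternative. All 91 members matched RefSeq (GRCm38.p6) by Entrez identifier.

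Every called member is named, with the value in every array for up to 2 per complex and direction, and some pairs besides. Up to 3 called genes per list and direction are named, and Gabpa, Yy1, Nrf1, Ppargc1a, Atpif1 and members given as range ends, by role or for a call under another setting were named after their values were seen. The members and lists were chosen with earlier results of these data known. Same-numbered arrays did not deviate together (correlations 0.004, -0.044 and -0.253 for replicates 1 to 3), so no replicate block was used. The procedure was tested on simulated data, in which 1 of 112 calls was false. The number of arrays limits the precision.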

Additional observations from a re-analysis of the deposited data

How the results depend on the processing

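Differences were refitted after quantile normalization or median centring, with 2 filters on dim genes, with the mean of probe sets, each probe set alone, another variance model, a replicate block, and without each array in turn. No called result changed sign. Quantile normalization moved members called higher to 20 of 91, complex III to 1 and complex IV to 5 called genes, and the median differences of complexes I, IV and V to 0.147, 0.060 and 0.178. Median centring moved the complex IV median to 0.069. Among genes at or above the median signal the assembly factor median was -0.004. With Ndufa4 and Ndufa4l2 counted under complex I, complex IV had 1 called gene. With the replicate block 11 members were called higher and 9 lower, and Cycs (adjusted p = 0.0516), Atp5g2 (0.0606) and Atp5pb (0.11) were not called. Over all genes 2136 were called higher and 2936 lower with that block. The labels do not say whether same-numbered arrays of the groups share an animal or a preparation. The causes were not tested. With an array left out, members called lower ranged from 6 to 14, and called genes from 1 to 3 among the assembly factors, 1 to 2 in complex II, 0 to 1 in complex III, 1 to 3 in complex IV and 2 to 7 in complex V. Over all genes, 4254 to 5490 were called in these fits. With 3 arrays a group, differences under about 0.5 were often not recovered in simulation. The simulation had far fewer called genes than the data and so a stricter cutoff, and does not give the recovery in the data.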
